A study of Mus musculus with 2 samples.

Results

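Tubulins are the building blocks of microtubules, and stathmin is a small protein that binds them. Of the 43346 mouse genes in the tables, 10 genes of this group were followed by name in the newborn mouse thymus. They are 4 alpha-tubulin genes (Tuba1a, Tuba1b, Tuba1c, Tuba4a), 4 beta-tubulin genes (Tubb2a, Tubb3, Tubb4b, Tubb5), the gamma-tubulin gene Tubg1 and the stathmin gene Stmn1, and all 10 were found. Total RNA longer than 200 nt was taken from whole thymus tissue of B6NCrl mice at postnatal day 0, with no treatment and no genetic change named. Each of the 2 libraries was made from 13 pg of that RNA, which the labels equate with 1 cell, so a library sampled the RNA of many cells at the depth of a single cell. Pup 6 gave replicate 1 and pup 7 gave replicate 2, each described as born to a C57/Bl6 female aged 6 months and 10 days, with the same donor entry and no sex recorded. There is 1 group only, so the data give levels and the spread between 2 pups, and no test between groups exists.

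Alpha- and beta-tubulin pair into dimers that assemble into microtubules, and gamma-tubulin sits in the ring complex that starts a new microtubule. Stathmin binds free dimers and destabilises microtubules, and it is a known marker of dividing and immature cells. In the thymus, immature T cells divide and also use microtubules at the contact with the cells that select them. The alpha and the beta proteins are each made from several near-identical genes, called isotypes, which differ mostly in the last part of the protein.

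The libraries held 27003123 and 32980032 expected counts (estimated reads), of which 25999043 and 31902773 lay in mouse genes, and 10275 and 11764 genes had 1 or more counts. The 10 thymocyte markers were read in both libraries and summed to 5775 and 5560 TPM, with Lck, the first kinase of T-cell receptor signalling, at 1424 and 1403 and Cd3d, a chain of the receptor complex, at 819 and 841. TPM is a level per transcript length and per library, rescaled here so that mouse genes alone sum to 1000000. The 10 tubulin and stathmin genes took 0.747% of the mouse counts of replicate 1, with an exact 95% binomial interval from 0.744 to 0.750. Their share was 0.425% in replicate 2, with an interval from 0.423 to 0.428. These intervals describe read counting alone, because no molecular identifiers are in the tables.

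The sequences show how alike these genes are, which bears on how far a read can be given to 1 of them. Tuba1b (chromosome 15, 98931425 to 98934565, minus strand) and Tuba1a (98949837 to 98953703, minus strand) lie 15.3 kb apart, and Tuba1c (99029891 to 99038110, plus strand) lies 76.2 kb further on, all in GRCm38. Their coding sequences were identical at 97.1% to 98.3% of aligned positions, while the parts after the stop codon were identical at 39.1% to 43.0%.

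Tubb2a (chromosome 13, 34074274 to 34078007, minus strand) has a like neighbour, Tubb2b, 48.7 kb away on the same strand. Tubb2b is not 1 of the 10, and its coding sequence was 96.5% identical to that of Tubb2a. The other beta isotypes followed here were further apart, at 81.4% to 84.6% between pairs of Tubb2a, Tubb3, Tubb4b and Tubb5. The last 60 coding bases of the neighbouring pair are printed from GENCODE M21 transcripts, 5′ to 3′, to show how few bases separate them, with capitals at the 3 positions that differ.
Tubb2a: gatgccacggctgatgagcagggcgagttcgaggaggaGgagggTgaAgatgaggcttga
Tubb2b: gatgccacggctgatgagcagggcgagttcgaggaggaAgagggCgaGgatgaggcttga

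The other end of the coding sequence matters for how these mRNAs are controlled. When free tubulin is plentiful, cells degrade tubulin mRNA during translation, after the factor TTC5 has bound the first amino acids of the nascent alpha- or beta-tubulin. The first 21 coding bases are printed from the same transcript set, 5′ to 3′, with the first 4 codons in capitals, since these encode that stretch. Tuba4a is not printed, and its coding start was not compared. Tuba1a, Tuba1b and Tuba1c share all 21 bases, Tubb3 and Tubb4b share the 12 in capitals, and Tubg1 and Stmn1 begin otherwise.
Tuba1a: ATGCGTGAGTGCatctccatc
Tuba1b: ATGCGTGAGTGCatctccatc
Tuba1c: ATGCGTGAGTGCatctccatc
Tubb2a: ATGCGCGAGATCgtgcacatc
Tubb3: ATGAGGGAGATCgtgcacatc
Tubb4b: ATGAGGGAGATCgtgcacctg
Tubb5: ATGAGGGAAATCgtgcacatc
Tubg1: ATGCCGAGAGAAatcatcacc
Stmn1: ATGGCATCTTCTgatattcag

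The effective length in the tables is 99 bases below the length, so stretches of 100 bases were compared with those of every other gene in the tables. In M21 transcripts, 65.6% of the stretches of Tuba1b, 53.4% of those of Tuba1c and 49.2% of those of Tuba1a occurred in another gene, mostly in each other and in processed pseudogenes. The share was 35.9% for Tubb2a, all of it with Tubb2b, 29.2% for Tubb4b and 26.1% for Stmn1, both with pseudogenes, and 4.11% for Tubg1, with its neighbour Tubg2. Tuba4a, Tubb3 and Tubb5 shared none. The transcripts were compared 5′ to 3′ only, so overlap on the opposite strand, as of Tuba4a with Stk16 below, was not covered. The M21 transcript of Tuba1a has 1803 bases, against 1647 bases in the deposited tables, so its share is approximate. The 10 pseudogenes that hold such stretches had 494 and 360 expected counts in all, against 61111 and 31772 in Tuba1b alone. The authors' estimate divided shared reads, and the posterior SD that the deposited tables give for its counts was 87.1 and 69.8 for Tuba1b and 56.0 and 58.5 for Tuba1c, whose own counts were 2983 and 2862. These SDs were small beside the counts. With so many stretches shared, the split among Tuba1a, Tuba1b and Tuba1c, and between Tubb2a and Tubb2b, still depends on that estimate. It is treated as uncertain, and sums over these genes are given too.

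Alpha-tubulin mRNA came mainly from Tuba1b, a widely used isotype. Tuba1b stood at 1819 TPM in replicate 1 and 837 in replicate 2 (1328 ± 695, SD, n = 2), the 64th and the 169th highest level among mouse genes. Tuba1a, known as the main alpha isotype of young neurons, stood at 484 and 314 TPM (399 ± 120). These levels placed Tuba1b far above its neighbour in both pups. Tuba4a (chromosome 1, 75214228 to 75219865, minus strand), which does not encode the final tyrosine that other alpha isotypes carry, stood at 234 and 137 TPM (186 ± 68.4). Tuba1c, another widely used isotype, stood at 77.7 and 66.0 TPM (71.9 ± 8.30) and had the smallest relative spread of the 10 genes. All 4 alpha genes were higher in replicate 1. The range of Tuba1c lay below those of the other 3.

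Per transcript length, beta-tubulin mRNA was led by another gene in each pup. Tubb5 (chromosome 17, 35833921 to 35838306, minus strand), a widely used isotype abundant in dividing cells, stood at 849 TPM in replicate 1 and 463 in replicate 2 (656 ± 273, SD, n = 2). Tubb2a, best known from neurons, stood at 242 and 695 TPM (468 ± 321). By TPM, Tubb5 was thus the highest beta gene in replicate 1 and Tubb2a in replicate 2. In counts, which are not corrected for length, Tubb5 was the higher in both, with 44152 and 27193 against 7327 and 23839 for Tubb2a. Tubb4b (chromosome 2, 25222160 to 25224702, minus strand), a general isotype also found in cilia, stood at 319 and 142 TPM (230 ± 125). Tubb3 (chromosome 8, 123411424 to 123422015, plus strand), the isotype used as a neuronal marker, stood at 68.0 and 0.0748 TPM, from 2459 and 3 counts. Of the 4 beta genes, Tubb2a alone was higher in replicate 2.

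Stmn1 (chromosome 4, 134468320 to 134473843, plus strand) was by TPM the most abundant of the 10 genes in both pups, at 2188 and 1346 TPM (1767 ± 596, SD, n = 2). In counts, Tuba1b was above it in both, with 61111 and 31772 against 42169 and 29812. By mean level it stood 46th among 21474 protein-coding genes, and Tuba1b stood 70th. Tubg1 (chromosome 11, 101119938 to 101126419, plus strand) was the lowest, at 47.1 and 0.0534 TPM, from 1637 and 2 counts. By mean TPM the order was Stmn1, Tuba1b, Tubb5, Tubb2a, Tuba1a, Tubb4b, Tuba4a, Tuba1c, Tubb3 and Tubg1. In 8 of the 9 steps of that order the ranges of the neighbouring genes overlapped, and Tuba4a and Tuba1c were the exception. Tubb2a was 6th of the 10 in replicate 1 and 3rd in replicate 2. With Tubb2a left out after its values were seen, the other 9 genes stood in the same order in both pups. In replicate 2 some steps were small, with Tubb4b and Tuba4a at 142 and 137 TPM and Tubb3 and Tubg1 at 3 and 2 counts.

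**Figure D1:**
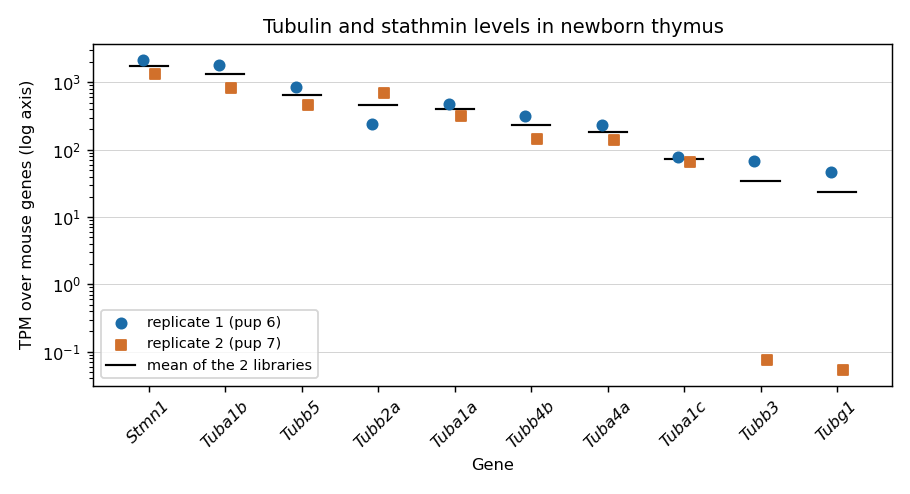
Level of each of the 10 genes in the 2 libraries, as TPM over mouse genes on a log axis, with the mean as a bar; circles are replicate 1 and squares replicate 2. Replicate 1 is higher for 9 genes and replicate 2 for Tubb2a, and Tubb3 and Tubg1 drop to 0.0748 and 0.0534 TPM in replicate 2.

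Summed over all alpha genes, which adds 4 further genes listed at 0, alpha-tubulin mRNA was 2615 TPM in replicate 1 and 1354 in replicate 2 (1984 ± 892, SD, n = 2). The sum over all 8 beta genes was 1650 and 1370 TPM (1510 ± 198). The ratio of alpha to beta was 1.58 in replicate 1 and 0.988 in replicate 2, so alpha mRNA was in excess in 1 pup and about level with beta in the other. Tuba1b gave 69.6% and 61.8% of the alpha sum and Tuba1a 18.5% and 23.2%, the same leading pair in both pups. Tubb5 gave 51.4% and 33.8% of the beta sum, while Tubb2a gave 14.6% and 50.8%. Tubb4b gave 19.3% and 10.4%. Without Tubb2a, the other 3 beta genes followed here summed to 1236 and 605 TPM, a log2 ratio of replicate 2 over replicate 1 of -1.03. That sum leaves out the 1 beta gene of the 10 that was higher in replicate 2. The log2 ratio was -0.18 over the 4 beta genes, -0.27 over all 8 and -0.95 for the alpha sum.

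**Figure D2:**
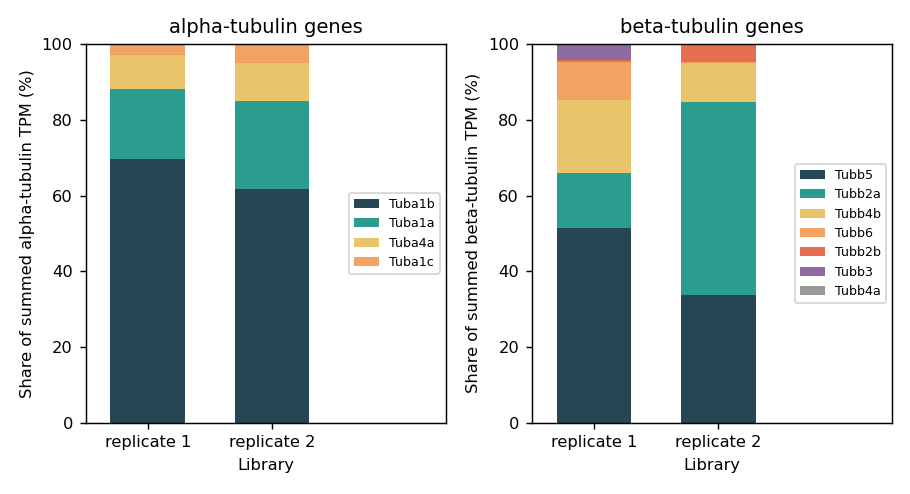
Share of the summed TPM of all alpha-tubulin genes (left) and all beta-tubulin genes (right) given by each isotype, in percent, in the 2 libraries. Tuba1b gives 69.6% and 61.8% of alpha, while the largest beta share passes from Tubb5 (51.4% in replicate 1) to Tubb2a (50.8% in replicate 2).

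Each pup gave 1 library, so nothing replicates the difference between them and it carries no p-value. It was set beside the spread of other genes read at a like depth, on the scale of log2(TPM + 1), which understates ratios of low genes. All 10 passed a minimum mean of 100 counts, as did 9341 mouse genes in all. Of them, 2 differed 4-fold or more between the pups, beside 50.9% of those 9341 genes, and both were higher in replicate 1, beside 21.5%. At 2-fold or more there were 5 of 10, beside 67.7%, with 4 higher in replicate 1 (29.7% of all) and Tubb2a higher in replicate 2 (38.0% of all). By direction alone 9 of 10 were higher in replicate 1, beside 47.0% of all, and their median log2 ratio was -0.82 beside 0.17. Such a count describes these 2 libraries, and the 10 genes are not independent of each other. In whole tissue, fewer cells of a type and less RNA per cell cannot be told apart.

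Depth set how much a single ratio can carry. For the 80 mouse genes whose mean count was 30000 or more, the log2 ratio had a robust SD (from the median absolute deviation) of 0.38, and the middle 50% of genes lay between -0.35 and 0.18. In that range Tuba1b was at -1.12, Tubb5 at -0.87 and Stmn1 at -0.70, all below those quartiles. Tuba1b, with 61111 and 31772 counts, was the 1 gene of the 80 (1.25%) that was 2-fold or more higher in replicate 1. In either direction 6.25% of them differed 2-fold or more. Since Tuba1b shares reads with Tuba1a and Tuba1c, their sum is given too. The 3 genes together stood at 2381 and 1217 TPM, a log2 ratio of -0.97, just short of 2-fold. The 6 ERCC spike-in RNAs with a mean of 30000 or more counts, added at known amounts, had a robust SD of 0.12.

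For the 371 genes with a mean count from 10000 to 30000 the robust SD was 0.68. Tubb2a, with 7327 and 23839 counts, was at 1.52, above the upper quartile of 0.60, the direction in which 14.3% of those genes were 2-fold or more apart. In the other direction it was 4.58%, in either 18.9%, and 2.43% were 4-fold or more apart. Tuba1a was at -0.62, below the lower quartile of -0.39 and within 1 robust SD of 0. Among the 2093 genes at 3000 to 10000 counts the robust SD was 1.31. There Tuba4a was at -0.77 and Tubb4b at -1.16, both below the lower quartile of -0.70 and within 1 robust SD of 0. Of those genes 17.7% were 2-fold or more higher in replicate 1, as Tubb4b was, 26.7% in replicate 2 and 44.4% in either direction, and 18.6% were 4-fold or more apart. Tuba1c, at -0.23 with a mean just under 3000 counts, was close to level.

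Tubb3 and Tubg1 were nearly absent from replicate 2. For Tubg1, the ratio of replicate 1 to replicate 2 after scaling to mouse counts was 1004, and its 95% counting interval ran from 278 to 8300. For Tubb3 it was 1006 (344 to 4881). Such a gap was common at their depth, since 29.5% of genes with a mean of 1000 to 3000 counts and 64.5% of those with 100 to 1000 had 3 or fewer counts in 1 library. The intervals describe the reads of these 2 libraries, not the 2 pups.

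**Figure D3:**
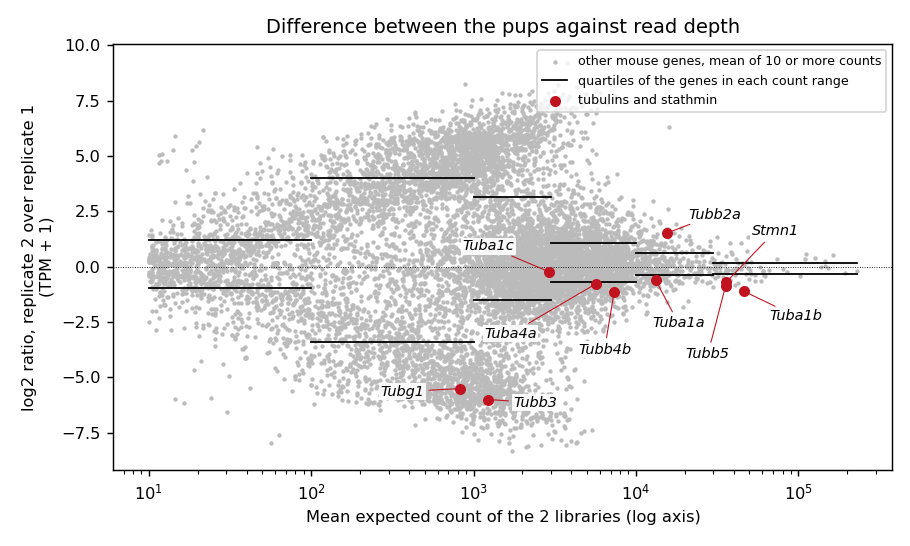
Log2 ratio of replicate 2 over replicate 1 (TPM + 1) against the mean expected count (log axis) for mouse genes whose mean count was at least 10; black lines are the quartiles in each count range and red points the 10 genes. Stmn1, Tubb5 and Tuba1b lie below the quartiles at high depth, Tubb2a lies above them at 1.52, and Tubb3 and Tubg1 lie in the lower cloud of genes read almost in replicate 1 alone.

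Several marker lists also differed between the pups, and their part in the differences above was not tested. Of all 9341 genes at 100 or more counts, 4388 (47.0%) were higher in replicate 1 and 4953 in replicate 2. Of them 50.9% were 4-fold or more apart, and 18.6% of those with a mean from 3000 to 10000. With few genes in each list, the counts below describe the lists only. The 15 proliferation genes, read beside Stmn1, Tuba1b and Tubb5, summed to 4041 and 3188 TPM. Of the 14 that passed the minimum of 100 counts, 11 were higher in replicate 1, with a median log2 ratio of -0.33 and none 4-fold apart. Birc5, the mitotic survivin gene, had the highest mean of the list, at 492 and 414 TPM, and Ccnb1, a mitotic cyclin gene, stood at 327 and 545, so single genes of the list went either way. Tyms, an enzyme of thymidine synthesis, had 0 and 100 counts, a gap common at that depth. The thymocyte markers had a median log2 ratio of 0.01, with 5 of 10 higher in each pup. The 8 thymic epithelium markers summed to 2570 and 2695 TPM. In the direction in which Tubb2a differed, the 9 erythroid markers summed to 3528 and 9426 TPM, with 6 of 6 that had enough counts higher in replicate 2 and Epb42 at 0 in both. The 6 macrophage markers summed to 409 and 811 TPM, with 4 of 6 higher in replicate 2. In the other direction, the 8 heart and skeletal muscle markers summed to 1046 and 438 TPM, with 6 of 7 higher in replicate 1, and the 5 endothelium markers to 290 and 121, with 3 of 4 higher and Kdr at 0 in both. The 6 fibroblast markers summed to 1533 and 1314 TPM, although 3 of 5 were higher in replicate 2.

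Neuron markers were read unevenly, and 3 of the 13 on the list passed the minimum of 100 counts. The list summed to 39.0 and 86.6 TPM, and Elavl3, Nefm, Prph and Th had 0 counts in both libraries. Rbfox3, a neuronal splicing factor, had 991 and 0 counts, the direction of Tubb3, while Elavl4, a neuronal RNA-binding protein, had 3 and 1820 and Syt1, a synaptic vesicle protein, had 1 and 929. Of the 6 neuroendocrine and parathyroid markers, 3 were well read in replicate 1 and little or not in replicate 2. These were Chga, a secretory granule protein, with 990 and 14 counts, Pth, the parathyroid hormone gene, with 799 and 0, and Calca, the calcitonin gene, with 791 and 0. The list summed to 134 and 0.342 TPM, with Chgb and Gcm2 at 0 in both. Such gaps, like those of Rbfox3, Elavl4 and Syt1, were common at this depth. Of all genes with a mean of 100 to 1000 counts, 64.5% had 3 or fewer in 1 library and 77.5% were 4-fold or more apart. The glial list summed to 21.9 and 79.7 TPM, mostly from Mbp, with Sox10 at 0 in both.

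The transcript tables list 29 transcripts for the 10 genes, and for 9 genes a single transcript carried 96.8% or more of the TPM. Tuba1c, Tubb2a and Tubb3 have 1 listed transcript each, so their share was fixed at 100%. In Tuba1a, Tuba1b and Tubg1 no other listed transcript had a count. Tubg1 had only 2 counts in replicate 2, and by posterior mean TPM Tubg1-201 gave 99.6% and 58.3%. Tubb5-201 gave 99.8% and 99.6% of the Tubb5 TPM, and Tubb4b-201 gave 99.9% and 100%. In Stmn1 the main transcript Stmn1-201 gave 96.8% and 99.5%, and the short Stmn1-204 gave 2.84% in replicate 1 (477 counts) and 0.0595% in replicate 2 (7 counts). Stmn1-204 was thus read almost in 1 pup alone.

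Tuba4a was spread over 5 read transcripts of 8 listed. Tuba4a-201, a coding form of 2083 bases, stood at 111 and 33.4 TPM, which was 47.5% and 24.3% of the gene. Tuba4a-206, a coding form of 1205 bases, stood at 104 and 73.0 TPM, or 44.3% and 53.2%. The forms were thus about level in replicate 1, and the shorter led in replicate 2. By expected counts Tuba4a-201 held 61.5% and 37.6%. The mean transcript length that the tables give for Tuba4a differed accordingly, at 1632 and 1384 bases, and its log2 ratio was -0.77 in TPM and -1.14 in CPM (counts scaled to 1000000 mouse counts), which do not correct for length. Tuba4a overlaps Stk16, a kinase gene on the opposite strand that had 2588 and 276 counts, along 1379 exon bases. Of the exon bases of Tuba4a-201, 30.5% lie in Stk16 exons, and of those of Tuba4a-206 none do. Whether the counting used strand is not given in the sources used here, so reads of the overlap cannot be assigned with certainty, and Tuba4a levels are uncertain to that extent.

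**Figure D4:**
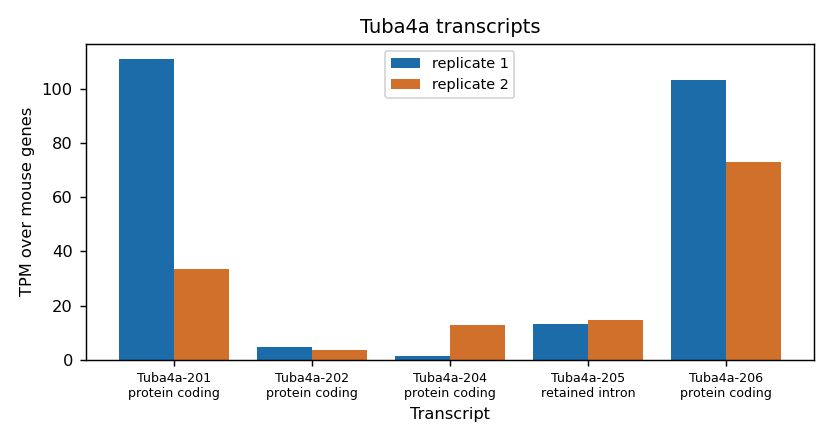
TPM over mouse genes of the 5 Tuba4a transcripts with 1 or more counts, in replicate 1 and replicate 2, with the transcript type of GENCODE M21 under each name. Tuba4a-201 stands at 111 and 33.4 and Tuba4a-206 at 104 and 73.0.

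All 10 genes had 1 or more counts in both libraries, beside 32.1% of protein-coding genes and 19.0% of all mouse genes, although Tubb3 and Tubg1 had 3 and 2 in replicate 2. Of the 11 other tubulin genes, 3 were read in both. Tube1, the centriolar epsilon-tubulin gene, stood at 90.7 and 128 TPM, the steadiest of the 3. Tubb2b had 308 and 2846 counts (8.27 and 67.6 TPM) and was higher in replicate 2, as was its neighbour Tubb2a. The pair summed to 250 and 763 TPM. Tubb6, a widely used beta isotype, stood at 165 and 1.91 TPM, a difference in the other direction.

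Tubg2, the second gamma-tubulin gene, lies 29.5 kb from Tubg1 on the same strand and had 1066 counts in replicate 1 and 0 in replicate 2. Taking 3 counts as the upper limit for a library with 0, it was at least 436-fold higher in replicate 1. Both gamma-tubulin genes were therefore read almost in replicate 1 alone. Tubb4a had 3 and 0 counts. Tuba3a, Tuba3b, Tuba8, Tubal3, Tubb1 and Tubd1 had 0 in both, which allows up to 0.115 and 0.0940 CPM. The 3 other stathmin genes were close to that limit, with 6 and 1 counts for Stmn2, 3 and 0 for Stmn3 and 2 and 0 for Stmn4, so Stmn1 was the 1 stathmin gene well read in these libraries.

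Of the 20 genes of tubulin folding, 18 had 1 or more counts in both pups, beside 32.1% of protein-coding genes. Prefoldin and the ring chaperone TRiC fold new tubulin, and the cofactors Tbca to Tbce then join alpha to beta. These 20 genes, the GTPase gene Arl2 among them, summed to 3709 and 3475 TPM. Of the 18, Arl2 had 1129 and 4 counts and the prefoldin gene Pfdn2 had 792 and 5, so both were nearly absent from replicate 2. All 20 passed the minimum of 100 counts, with a median log2 ratio of -0.24. Of them, 2 were 4-fold or more higher in replicate 2 (29.4% of the 9341 genes) and 3 in replicate 1 (21.5%). Those 9341 genes span all depths above the minimum. Their 4-fold share in either direction fell from 77.5% at 100 to 1000 counts to 18.6% at 3000 to 10000. By the mean of both libraries the TRiC subunit genes Cct5, Cct8, Cct3 and Cct2 were highest, at 196 and 643, 615 and 203, 437 and 297, and 240 and 315 TPM. Cct5 and Cct8 thus differed in opposite directions. The cofactor genes Tbcd and Tbcc had 0 counts in replicate 1 and 5260 and 1435 in replicate 2, at least 1429-fold and at least 390-fold higher.

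Of the 11 genes of the gamma-tubulin ring complex and its anchors, 10 were read in both libraries, beside 32.1% of protein-coding genes. The 11 summed to 381 and 598 TPM. Mzt1, a small subunit that helps the complex assemble, stood at 52.6 and 154 TPM, the anchor Akap9 at 21.6 and 162, the core subunit Tubgcp3 at 42.7 and 86.8 and Mzt2 at 56.0 and 61.9. Of 10 with enough counts, 2 were 4-fold or more higher in replicate 2 (29.4% of the 9341 genes of all depths) and 2 in replicate 1 (21.5%). Tubgcp6, a core subunit, had 79 and 0 counts, at least 32.3-fold higher in replicate 1, at a depth where such gaps were common. Most of the list was therefore read in replicate 2, in which Tubg1 and Tubg2 were nearly absent.

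Among 25 genes of proteins that bind or sever microtubules, 13 were read in both libraries, beside 32.1% of protein-coding genes. In each library alone 4 were read, and 4 in neither. By mean the autophagy gene Map1lc3b was highest, at 430 and 529 TPM, followed by Mapre1, which tracks growing ends, at 86.0 and 252, the spindle gene Tpx2 at 182 and 51.1 and Ckap5, which speeds growth, at 52.6 and 70.3. Of 15 with enough counts, 4 were 4-fold or more higher in replicate 2 (29.4% of the 9341 genes of all depths) and 2 in replicate 1 (21.5%). Their median log2 ratio was 0.42, beside 0.17. Clasp1, a stabiliser of growing ends, had 0 and 4515 counts, Mapre2 had 1591 and 0, and Kif2c, a depolymerase of the kinesin family, had 0 and 410. Such gaps were common at their depths. The neuronal microtubule genes Mapt and Map2 had 0 counts in both and 1 and 0.

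Of 14 genes of enzymes that modify tubulin, 7 were read in both libraries, beside 32.1% of protein-coding genes, and 3 in neither. Svbp, the partner of the enzymes that remove the final tyrosine, stood at 101 and 208 TPM. Those enzymes, Vash1 and Vash2, had 0 counts in both and 0 and 3. Ttll12 stood at 20.7 and 150 TPM, the deacetylase gene Sirt2 at 61.9 and 94.7 and the acetylase gene Atat1 at 20.3 and 105, all higher in replicate 2. Of 8 with enough counts, 5 were higher in replicate 2 and 3 in replicate 1, the direction of 47.0% of the 9341 genes. In replicate 2, 3 were 4-fold or more higher (29.4% of the 9341 genes of all depths), and in replicate 1, 2 (21.5%). Agtpbp1, which removes glutamates, had 788 and 0 counts, a gap common at that depth.

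Of the 4 genes named for the control of tubulin mRNA, Ttc5, which binds the nascent chain that the coding starts encode, stood at 93.5 and 78.4 TPM. The alpha sum in the same pups was 2615 and 1354 TPM. Cnot1, the scaffold of the deadenylase complex that degrades the mRNA, stood at 35.8 and 11.3 TPM. Cnot11 had 175 and 2 counts, and Scaper, the adaptor between them, had 0 in both.

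**Figure D5:**
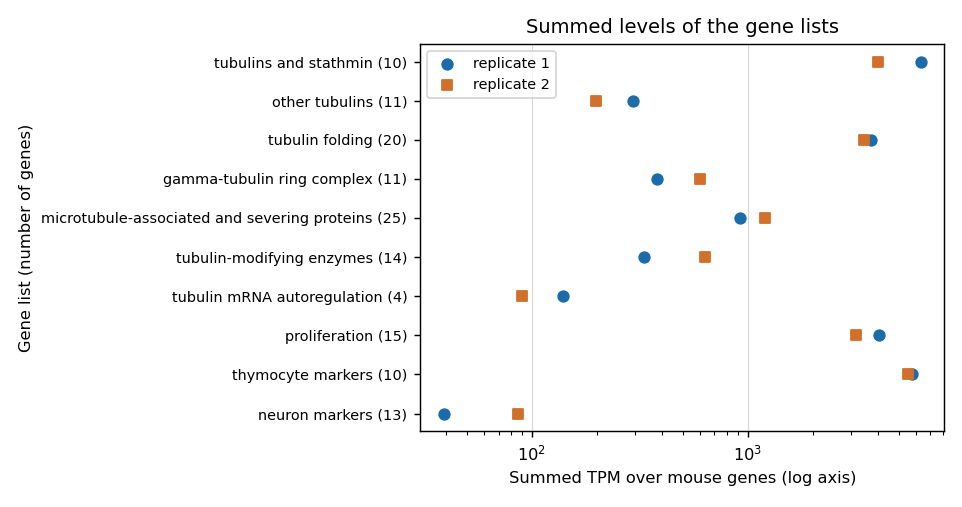
Summed TPM over mouse genes (log axis) of 10 gene lists in the 2 libraries, with the number of genes in parentheses; circles are replicate 1 and squares replicate 2. The tubulin and stathmin sum is 6327 in replicate 1 and 4000 in replicate 2, while the tubulin folding genes and the thymocyte markers are close to level.

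Genes most like the leading members in level were sought among 21474 protein-coding genes, by distance in log2(TPM + 1) over the 2 libraries. For Tubb5 the nearest was Atp5o (distance 0.032, 832 and 468 TPM), and Uqcr11 (0.124) was also close. For Stmn1 they were Rps9 (0.065, 2201 and 1408 TPM), Rpl13 (0.268) and Eif5a (0.294). For Tuba1b they were Cstb (0.277, 1505 and 862 TPM), Rps16 (0.329) and Dynlt1b (0.332). The nearest gene to Tuba1b was thus further off than that to Tubb5 or Stmn1, and with 2 libraries such likeness says only that the levels were close.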

How the data were processed

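Each library has its own gene and transcript table. Per the file headers and the deposited text notes, the authors gave for each feature an expected count (estimated reads) and TPM, with posterior means, on mm10 with annotation M4. The deposited TPM summed to 1000000 in each library, spike-ins included. The deposited lengths, the posterior SD of counts and the TPM bounds were read as scores, and the deposited transcript share of a gene, in percent, was recomputed from TPM. For the aligner and counting program, the sources used here give no name.

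Of 43346 mouse gene IDs, 42462 were found in GENCODE M21 (GRCm38, the build mm10). TPM was rescaled over mouse genes. Ratios used a pseudocount of 1 TPM, calls a minimum mean of 100 counts, and a zero count a floor of 3 counts. Coding sequences were aligned with Biopython 1.88, and protein sequences were not analysed here. Ratios were recomputed with edgeR 4.0.16 TMM factors and DESeq2 1.42.0 size factors on rounded counts. Calls were tested on simulated data with counting noise alone. The spread of these libraries was far wider, so that checks the procedure and not the calls made here. Replicate numbers come from the labels. The members and lists were chosen with earlier results of these data known. The text names all tubulin and stathmin genes. From each pathway list it names up to 4 genes by mean TPM and up to 3 that were at 0 in a library and had at least 10 counts in the other. From the marker lists it names only some of these. Vash1, Vash2, Mapt and Map2 and the markers at 0 were added after their values were seen. For Tuba1b, Tubb5 and Stmn1, names come from the 3 nearest genes. A few items are not reported here. Both libraries carry 1 donor entry, so their spread holds pup, RNA handling and library together.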

Additional observations from a re-analysis of the deposited data

How the results depend on the processing

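Across posterior mean TPM, CPM, edgeR TMM factors, DESeq2 size factors and spike-in scaling, each of the 10 genes kept its direction, and 9 remained higher in replicate 1. Another pseudocount cannot change a direction. The count scalings shift all genes by a like small amount, so for genes far from level this is a weak check. The median log2 ratio of the 9341 genes, 0.17 here, ran from 0.08 with CPM to 0.27 with spike-in scaling, and Tuba1b ran from -1.24 to -1.04. With a threshold of 2-fold in place of 4-fold, 5 of the 10 genes passed in place of 2. Of the 9341 genes, 50.9% were 4-fold or more apart, and 27.4% with a pseudocount of 10 TPM. With no minimum count, 11.9% of all mouse genes were. In CPM over mouse counts, which do not correct for length, the beta sum was 2261 in place of 1510. The ratio of alpha to beta was then 1.25 and 0.848. Without replicate 1 or replicate 2, the alpha sum was 1354 or 2615 TPM, the beta sum 1370 or 1650, their ratio 0.988 or 1.58, and the Tuba4a-201 share 24.3% or 47.5%. No paired analysis was possible because both libraries belong to 1 group. With 1 library per pup, 2 or 3 counts in replicate 2 limit what can be said of Tubb3 and Tubg1.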
